A study of Homo sapiens with 6 samples.

Results

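The 9 mitotic genes CDK1, CCNB1, CCNA2, PLK1, AURKA, BUB1, UBE2C, CDC20 and TOP2A were examined for TRIM24 occupancy by chromatin immunoprecipitation and sequencing (ChIP-seq). They were chosen by name, and a TRIM24 peak was assigned to a gene when its midpoint lay within 10 kb of the gene's transcription start in hg19. This rule took 16 of the 37470 deposited peaks. LNCaP, an androgen-dependent prostate cancer line, was deprived of hormone in charcoal/dextran-treated serum for 72 h. It then received, for 4 h, either vehicle (ethanol) or the androgen dihydrotestosterone (DHT) at 10 nM. LNCaP-abl, a castration-resistant line derived from LNCaP, was kept in charcoal/dextran-treated serum throughout and given vehicle for 4 h. Each condition had 1 library made with the same TRIM24 antibody, so differences between conditions could not be set against replicates and were not tested. The lists held 9744 peaks for LNCaP with vehicle, 7105 for LNCaP with DHT and 20621 for LNCaP-abl. The read depth of each library is unknown, and both the number of peaks and their scores rise with depth. RNA levels and growth were not measured in these lists, so the genes are described by TRIM24 peaks alone.

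TRIM24 is a coregulator of nuclear receptors that reads histone tails through a PHD finger and a bromodomain. Mitotic genes are switched on late in the cell cycle, when proteins such as B-MYB and FOXM1, working with the MuvB complex, act at promoters that carry CHR elements and boxes bound by the factor NF-Y. The encoded proteins drive entry into mitosis (CDK1, cyclin B1, cyclin A2), build and check the spindle (PLK1, Aurora A, BUB1), direct the anaphase-promoting complex (CDC20, UBE2C) and untangle the chromosomes (TOP2A). Several of them are known as markers of proliferating, castration-resistant prostate cancer.

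TRIM24 peaks lay at the starts of most of these genes in LNCaP-abl and of few in LNCaP. In LNCaP-abl, 7 of the 9 genes had a peak within 10 kb: CDK1, CCNB1, CCNA2, PLK1, BUB1, CDC20 and TOP2A. In LNCaP with vehicle 3 genes had one (CCNA2, PLK1 and CDC20), and in LNCaP with DHT only CDC20 did. UBE2C and AURKA had no peak within 10 kb in any list. For comparison, a LNCaP-abl peak midpoint fell in 10.1% of all 20 kb windows of chromosomes 1 to 22 and X, a vehicle peak in 4.93% and a DHT peak in 3.85%. These windows cover intergenic sequence as well as gene starts, and starts of other genes were not counted because no hg19 annotation was used. CDK1, CCNB1, TOP2A and BUB1 had a peak in LNCaP-abl alone, a pattern seen in 4.85% of windows. CDC20 was the single gene with a peak within 10 kb in all 3 lists, a pattern seen in 2.82% of windows. Its vehicle and DHT peaks lay between 8.59 and 8.99 kb from the start. Among windows with a LNCaP-abl peak, 47.9% had no LNCaP peak, against 4 of the 7 genes. The share among the genes was therefore close to that over the genome.

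**Figure D1:**
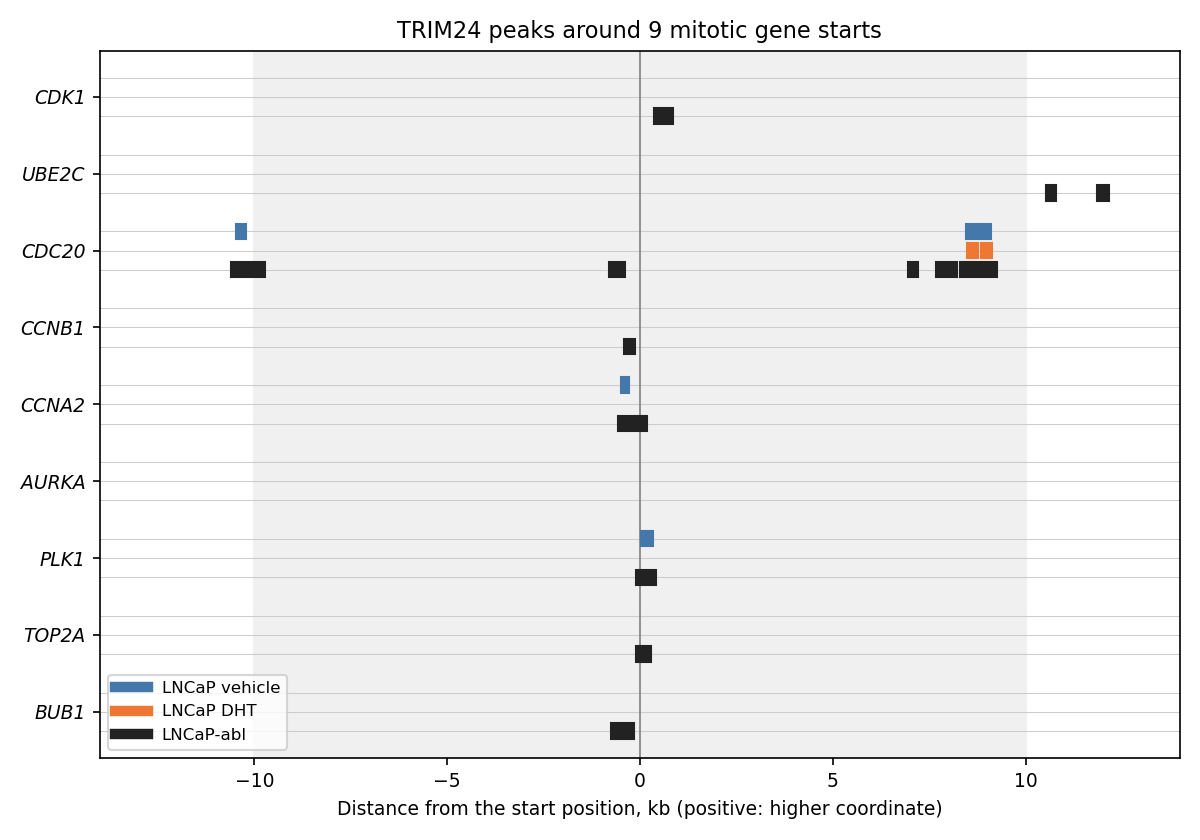
TRIM24 peaks of the 3 lists (coloured bars, drawn to width) around the start of each of the 9 genes, with distance from the start in kb on the x axis and the 10 kb window shaded. LNCaP-abl peaks sit at the start of 7 genes, vehicle peaks at the starts of CCNA2 and PLK1, and DHT peaks only at 8.62 and 8.99 kb from CDC20.

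The 7 LNCaP-abl genes were alike in where the peak lay. Each had exactly 1 LNCaP-abl peak with its midpoint within 1 kb of the start, at distances between 84 and 607 bp. The starts were given to the nearest 1 kb, which leaves an uncertainty of 500 bp. The side of the start is resolved only where the distance exceeds that, at CDK1 (607 bp, downstream) and CDC20 (602 bp, upstream). By the rounded positions, the start fell inside the peak at CCNA2, PLK1 and TOP2A, and at the other 4 genes the peak edge lay at most 389 bp away. The uncertainty of 500 bp leaves this split of the genes unresolved. LNCaP with vehicle had 2 such start-site peaks (CCNA2 and PLK1) and LNCaP with DHT had 0. Of the centres of all 20 kb windows, 1.22% had a LNCaP-abl peak midpoint within 1 kb, 0.584% a vehicle one and 0.414% a DHT one. The limit of 1 kb was set after the values were seen, and these centres are not placed at gene starts.

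These start-site peaks were modest by the standard of their own list. The authors' score (a p-value or q-value as −log10) ran from 3.80 to 24.1 over the 7 LNCaP-abl start-site peaks with a median of 12.4, while the median of the LNCaP-abl list was 26.1. None of the 7 (0 of 7) scored above that median. Their widths ran from 274 to 759 bp with a median of 500 bp, against 528 bp over the list. Of these 7 peaks, 2 overlapped a vehicle peak and 0 a DHT peak. Of the 9664 LNCaP-abl peaks in the same score range, 11.7% overlapped a vehicle peak and 8.03% a DHT peak. Over all 10 LNCaP-abl peaks of these genes, 3 overlapped a vehicle peak and 1 a DHT peak, against 36.0% and 27.4% of the whole list. Absence from a LNCaP list was thus the usual state of LNCaP-abl peaks of this score.

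**Figure D2:**
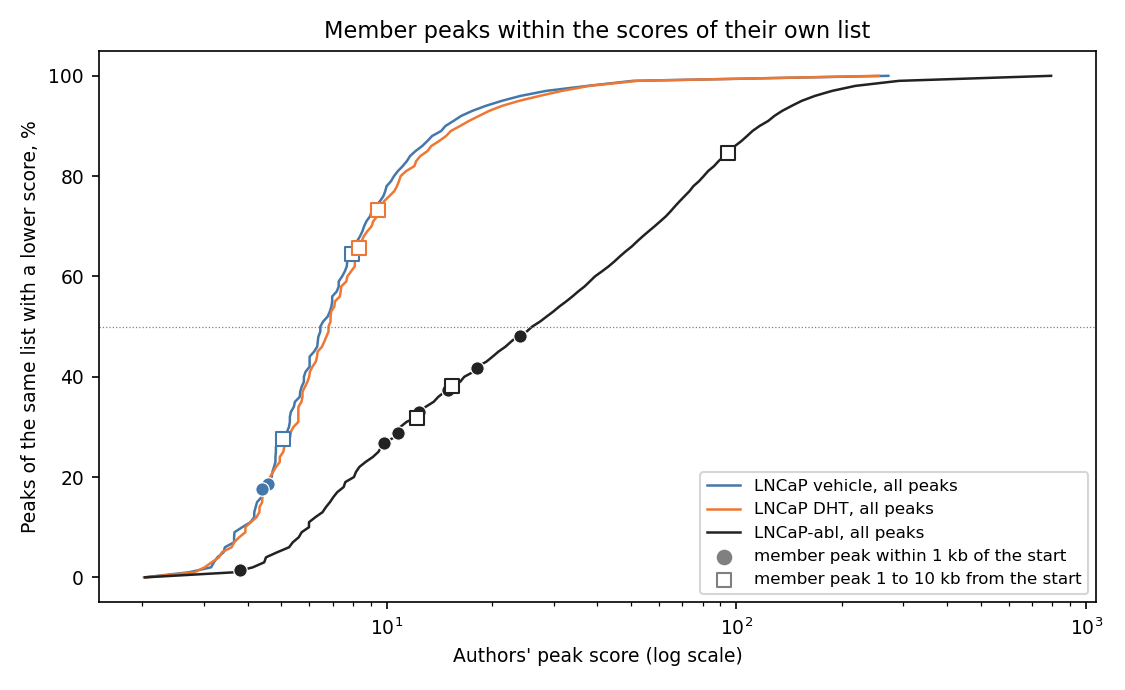
The authors' peak score (x axis, log scale) against the percentage of peaks of the same list with a lower score, with a curve for all peaks of each list and symbols for the peaks of the 9 genes. The 7 LNCaP-abl start-site peaks (filled) lie below the 50% line, and the CDC20 peak with a score of 94.8 lies far above it.

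The proximal promoters of the genes with a start-site peak are shown because the LNCaP-abl peaks lay on or next to these starts. Such promoters are also where elements known for late cell-cycle genes lie, though not every sequence shown holds each element. Whether the printed bases lie inside a peak was not determined, because no coordinates were converted. Sequences are from RefSeq (GRCh38.p14), which matched 7 of the 9 genes and not UBE2C or AURKA. UBE2C and AURKA are also the genes without a TRIM24 peak within 10 kb. Motifs could therefore not be compared between genes with and without a peak. Each run is the stretch of 160 bases that ends at the base before the annotated start, 5′ to 3′ on the strand of the gene. For CDK1, which has 2 annotated starts, 30 bases before the one farther along the gene are shown. Capitals mark CCAAT, the NF-Y box, or its reverse complement ATTGG, and the CHR letters TTTGAA or TTCGAA or their reverse complements.
CDK1 (chr10:60778448-60778477, plus strand): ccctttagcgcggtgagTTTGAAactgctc
CCNB1 (chr5:69166990-69167149, plus strand): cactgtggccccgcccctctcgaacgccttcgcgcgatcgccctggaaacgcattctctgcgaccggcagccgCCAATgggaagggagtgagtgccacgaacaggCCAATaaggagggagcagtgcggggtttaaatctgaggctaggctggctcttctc
CCNA2 (chr4:121823884-121824043, minus strand): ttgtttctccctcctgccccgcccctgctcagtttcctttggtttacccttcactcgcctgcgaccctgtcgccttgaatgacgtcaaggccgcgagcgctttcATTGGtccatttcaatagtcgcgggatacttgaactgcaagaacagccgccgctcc
PLK1 (chr16:23678729-23678888, plus strand): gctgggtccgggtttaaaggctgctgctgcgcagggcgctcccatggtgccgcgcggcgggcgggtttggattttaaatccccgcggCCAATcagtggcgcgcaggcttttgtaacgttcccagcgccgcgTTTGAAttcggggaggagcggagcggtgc
BUB1 (chr2:110678064-110678223, minus strand): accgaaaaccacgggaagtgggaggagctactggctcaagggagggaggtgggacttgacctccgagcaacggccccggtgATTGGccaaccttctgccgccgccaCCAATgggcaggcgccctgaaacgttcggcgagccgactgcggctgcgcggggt
CDC20 (chr1:43358821-43358980, plus strand): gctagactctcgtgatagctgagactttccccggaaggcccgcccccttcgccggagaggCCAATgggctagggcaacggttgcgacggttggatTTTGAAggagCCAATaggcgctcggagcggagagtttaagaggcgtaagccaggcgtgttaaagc
TOP2A (chr17:40417897-40418056, minus strand): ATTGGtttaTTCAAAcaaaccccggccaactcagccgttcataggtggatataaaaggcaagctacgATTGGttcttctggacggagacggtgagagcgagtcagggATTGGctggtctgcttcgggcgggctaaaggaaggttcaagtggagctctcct

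All 7 promoters (7 of 7) held CCAAT on one strand or the other within the 250 bases before the start, as did 32.0% of the 35116 promoters of the table. CDK1, CDC20, CCNB1, TOP2A and BUB1 had 2 or more copies, found in 9.53% of all promoters. In each gene the copy nearest the start lay at a similar place, with its first base between 46 and 73 bases before the start. For CDK1, all matches were counted from the annotated start farther along the gene, and none are given for its other start. A CHR match (TTTGAA or TTCGAA) was present in 4 of the 7, namely CDK1, CDC20, PLK1 and TOP2A, and in 14.3% of all promoters. These 4 genes held both elements, as did 5.05% of all promoters. The GC box GGGCGG was present in 6 of 7, the exception being BUB1, and in 42.6% of all promoters. The E2F letters TTCCCGC or TTGGCGC or TTCGCGC were found in CDK1 and CCNB1 and in 9.32% of all promoters, and TATAAA was found in TOP2A and in 10.7%. Both strands were searched for each motif, and no motif contains the letters of another in full. The stretch of 250 bases was 63.2% G and C at the median of the 7 genes and 58.0% over all promoters. These matches are descriptions of the sequence by exact letters, and a relation to TRIM24 peaks was not tested. CCNA2 had a single CCAAT and no CHR match of these letters, and TOP2A had 4 CCAAT copies and 2 CHR matches.

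**Figure D3:**
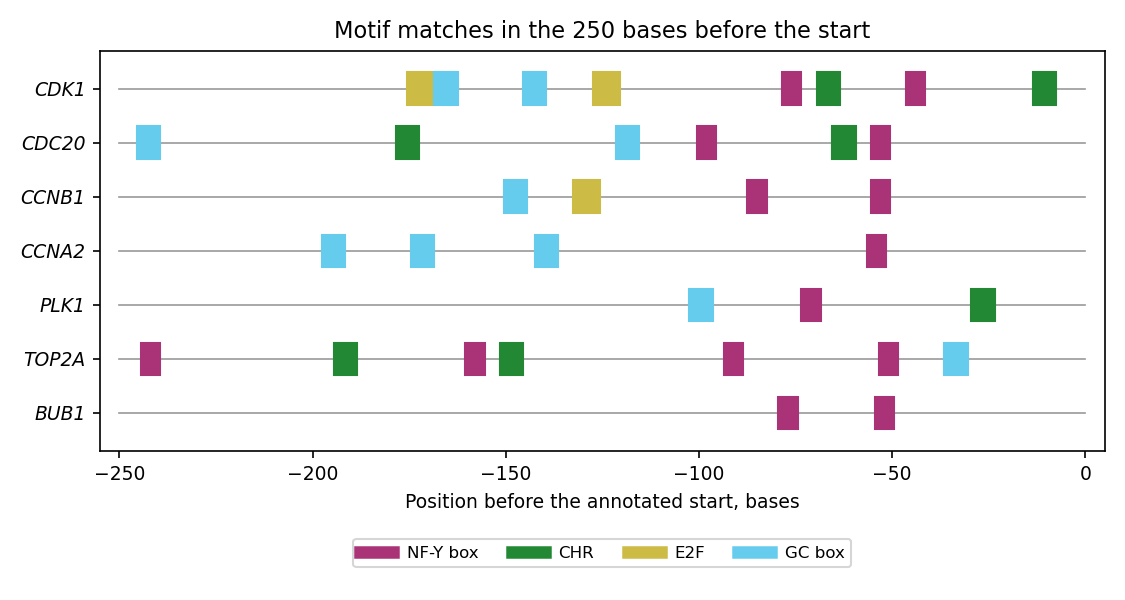
Positions of motif matches in the 250 bases before the annotated start of 7 genes (x axis, bases before the start), with a coloured block for each match of the NF-Y box, CHR, E2F letters and GC box. An NF-Y box stands between 46 and 73 bases before the start in every gene drawn, and CHR matches are drawn for CDK1, CDC20, PLK1 and TOP2A. For CDK1 the annotated start farther along the gene is used.

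The genes of mitotic entry differed in their LNCaP peaks. CDK1 (start at 62.538 Mb of chromosome 10), the kinase that starts mitosis, had 1 LNCaP-abl peak, chr10:62538358-62538857, with a score of 15.0, higher than 37.4% of the list. Neither LNCaP list had a peak within 10 kb of CDK1. The nearest vehicle peak lay 44.9 kb away with a score of 4.71, and the nearest DHT peak 1.07 Mb away. CDK1 thus stood in a stretch with 0 DHT peaks within 1 Mb on either side, where vehicle had 3 and LNCaP-abl 5.

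CCNB1 (68.463 Mb of chromosome 5) encodes cyclin B1, the partner that activates CDK1. Its LNCaP-abl peak, chr5:68462591-68462864, was 274 bp wide and had a score of 10.8. The nearest LNCaP peaks were 202 kb away with vehicle and 325 kb away with DHT. Of the 7 genes with a LNCaP-abl start-site peak, CCNB1 was the only one with no peak of either LNCaP list within 100 kb, a range in which LNCaP-abl had 5.

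CCNA2 (122.745 Mb of chromosome 4) encodes cyclin A2, which acts in S phase and at the entry into mitosis. It carried a peak in LNCaP with vehicle, chr4:122744520-122744719, with a score of 4.57, and in LNCaP-abl, chr4:122744437-122745195, with a score of 18.1. The vehicle peak was 200 bp wide, the narrowest width in that list, and lay wholly inside the LNCaP-abl peak of 759 bp. No DHT peak lay nearer than 46.2 kb. The LNCaP-abl start-site peak was the highest-scoring one of that list within 100 kb of CCNA2, which was not so at the other 6 genes with such a peak.

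Of the genes of the spindle and its checkpoint, PLK1 had the strongest start-site peak and AURKA had none. PLK1 (23.690 Mb of chromosome 16), a kinase of centrosome maturation and spindle assembly, had a vehicle peak, chr16:23690024-23690348, with a score of 4.41. It lay inside the LNCaP-abl peak chr16:23689906-23690417, which scored 24.1, above 48.2% of its list. The vehicle peak scored above 17.6% of its own list. The nearest DHT peak was 226 kb away with a score of 5.56. PLK1 and CCNA2 were therefore the genes whose start was marked in both cell lines under vehicle and unmarked in the DHT list. All 4 vehicle peaks of these genes, including 2 at CDC20, overlapped a LNCaP-abl peak, as did 88.4% of the vehicle list. A DHT peak was overlapped by 2 of the 4, both at CDC20, and by 48.6% of the list.

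BUB1 (111.436 Mb of chromosome 2), a kinase that signals unattached kinetochores to the spindle checkpoint, had a LNCaP-abl peak, chr2:111435258-111435849, with a score of 12.4. The nearest vehicle peak was 54.5 kb away with a score of 3.84, and the nearest DHT peak 95.2 kb away with a score of 3.76. AURKA (54.967 Mb of chromosome 20) encodes Aurora A, the kinase of spindle poles. Its nearest LNCaP-abl peak, chr20:54933737-54934664, lay 32.8 kb from the start with a score of 57.3. The nearest LNCaP peaks lay 1317 kb away with vehicle and 1000 kb away with DHT. Among 20 kb windows, 11.9% were farther from a vehicle peak than AURKA and 21.2% farther from a DHT peak. AURKA thus lay in a region empty of LNCaP peaks and also lacked a LNCaP-abl peak at its start.

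**Figure D4:**
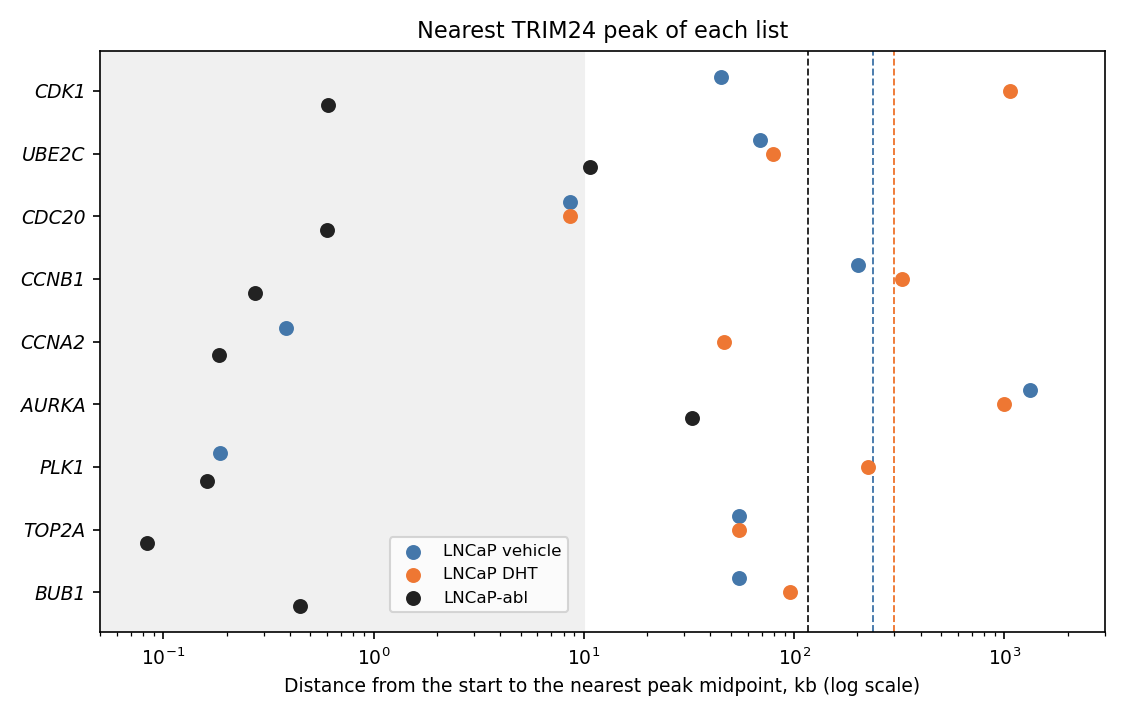
Distance in kb (x axis, log scale) from each gene start to the nearest peak midpoint of each list (points), with dashed lines at the median distance from the centre of a 20 kb window to a peak (116 kb in LNCaP-abl, 236 kb with vehicle, 298 kb with DHT) and the 10 kb window shaded. LNCaP-abl points of 7 genes lie under 1 kb, while the LNCaP points lie at 44.9 kb or more except at CDC20 and, for vehicle, at CCNA2 and PLK1.

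Of the genes of the anaphase-promoting complex, CDC20 had peaks within 10 kb in each list and UBE2C in none. CDC20 (43.825 Mb of chromosome 1), the activator of that complex at the onset of anaphase, had 4 LNCaP-abl peaks within 10 kb, and the vehicle and DHT lists had 2 each. The start-site peak, chr1:43824187-43824611, was found only in LNCaP-abl and had a score of 9.82, above 26.8% of the list. In the RefSeq table the divergent non-coding gene CDC20-DT is the neighbour on that side. The other 3 LNCaP-abl peaks formed a group between 7.09 and 8.77 kb downstream of the start, with gaps of 450 and 82 bp between neighbours. CDC20 spans 4.22 kb in RefSeq, so this group lies past its 3′ end, on the side of its neighbour ELOVL1, a fatty acid elongase gene.

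The strongest peak of the group, chr1:43833295-43834253, scored 94.8 in LNCaP-abl, above 84.7% of the list, and was 959 bp wide. It was the single peak of the 10 LNCaP-abl peaks of these genes to score above the median of the list. The 2 vehicle peaks, chr1:43833451-43833735 and chr1:43833790-43834113, with scores of 5.05 and 7.98, both lay inside it. The 2 DHT peaks, chr1:43833478-43833757 and chr1:43833853-43834125, with scores of 8.35 and 9.47, did so too. Both DHT peaks (2 of 2) overlapped a vehicle peak, as did 66.7% of the DHT list. The site shared by all 3 lists was therefore the one beyond the gene, and the start of CDC20 itself was marked in LNCaP-abl alone. Just outside the 10 kb limit, 10.16 kb from the start on the other side, lay a LNCaP-abl peak with a score of 94.0 that overlapped a vehicle peak with a score of 4.81.

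UBE2C (44.441 Mb of chromosome 20) encodes the ubiquitin-conjugating enzyme that works with the anaphase-promoting complex. It had no peak within 10 kb in any list, but LNCaP-abl peaks lay just outside, at 10.66 kb with a score of 7.18 and at 12.02 kb with a score of 4.52. The nearest vehicle and DHT peaks lay 68.8 and 79.0 kb away. UBE2C and CDC20 had the most LNCaP-abl peaks within 100 kb, 7 and 10, and only CDC20 had one at its start.

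TOP2A (38.574 Mb of chromosome 17) encodes topoisomerase II alpha, which separates intertwined DNA strands before anaphase. Its LNCaP-abl peak, chr17:38573894-38574276, was centred 84 bp from the start position, a distance within the rounding of that position. Its score of 3.80 exceeded only 1.45% of the list. The nearest LNCaP peaks lay 54.4 kb away with vehicle and 54.8 kb away with DHT, and both overlapped a LNCaP-abl peak with a score of 108. At TOP2A the strong local signal was thus this distant site, and the peak at the start was close to the lowest scores listed.

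Over the 100 kb on each side of the 9 starts, LNCaP-abl had 42 peaks, LNCaP with vehicle 16 and LNCaP with DHT 9. LNCaP-abl had the most at 8 of the 9 genes, and at TOP2A it tied with vehicle at 6. All 9 genes had a LNCaP-abl peak in this range, 7 a vehicle peak and 5 a DHT peak. Of the centres of all 20 kb windows, 47.0% had a LNCaP-abl peak within 100 kb, 31.2% a vehicle peak and 26.6% a DHT peak. The highest-scoring LNCaP-abl peak within 100 kb scored between 51.2 (BUB1) and 160 (PLK1) at 8 genes and 18.1 at CCNA2. At CDK1 it lay 44.9 kb from the start with a score of 129, and at PLK1 82.4 kb from the start. These distant sites scored higher than the start-site peaks at CDK1, CCNB1, PLK1, BUB1, CDC20 and TOP2A. Peak numbers were also higher in LNCaP-abl over the genome, and the part of list length and depth in these counts was not tested.

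**Figure D5:**
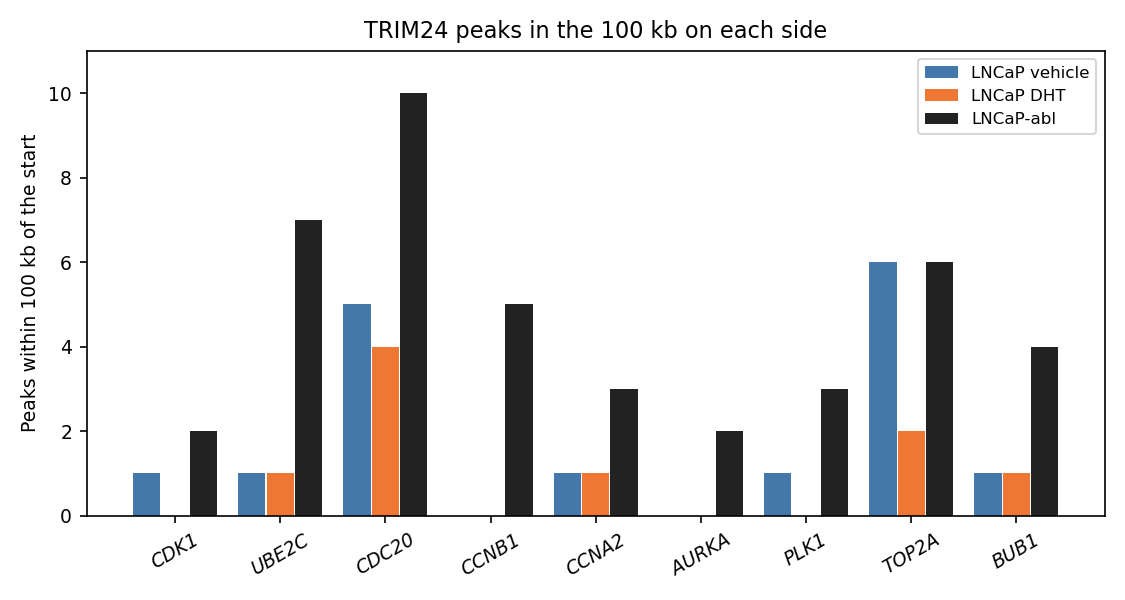
Number of TRIM24 peaks of each list (bars, y axis) with a midpoint within 100 kb of the start of each of the 9 genes. LNCaP-abl has the tallest bar at 8 genes and ties with vehicle at 6 peaks at TOP2A, and CCNB1 and AURKA have LNCaP-abl bars only.

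The counts of genes with a peak within 10 kb depended on low-scoring peaks. Keeping only the 7105 best-scoring peaks of every list removed LNCaP-abl peaks below a score of 49.6. Only CDC20 then had a peak within 10 kb, in each of the 3 lists, and no gene had one in LNCaP-abl alone. The LNCaP-abl peak kept at CDC20 was the one 8.77 kb from the start. All 7 LNCaP-abl start-site peaks, with scores of at most 24.1, were removed. With a common score minimum of 10, LNCaP-abl had peaks within 10 kb of 6 genes (CDK1, CDC20, CCNB1, CCNA2, PLK1 and BUB1). Neither LNCaP list had any there. At CDC20 the start-site peak, with a score of 9.82, was removed. The CDC20 peaks that were kept lay between 7.09 and 8.77 kb downstream. That minimum kept 15041 of the 20621 LNCaP-abl peaks, but only 2139 of the 9744 vehicle peaks and 1731 of the 7105 DHT peaks. It thus removed most peaks of both LNCaP lists over the whole genome. Whether the mitotic genes differed beyond this was not tested.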

How the data were processed

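TRIM24 ChIP-seq of 3 libraries was used, without the 3 input libraries. FastQC 0.10.0, Bowtie 0.12.7, MACS2 2.0 and the hg19 build are named in the submitters' processing notes. Peak names point to 1 list per library. The authors deposited a score per peak, a −log10 value of either p or q. Which of these it is, and the cutoff, read filters and use of inputs, is not given in the sources used here. Depth is unknown, so no intervals were computed.

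Gene starts, given to 1 kb, came with the list of genes. The genes, motifs and settings were chosen with earlier results of these data known, and the 1 kb limit for start-site peaks after the values were seen. All 9 genes are named, with each peak within 10 kb and, where none, the nearest peak. Overlap meant at least 1 bp and was checked with bedtools 2.31.1. Python 3.11.15 code (pandas 2.3.3, numpy 2.4.6, matplotlib 3.10.9) was tested on simulated peaks. The genome was tiled in 20 kb windows up to the last peak of each chromosome. Positions are 1-based. Neighbours and gene length are from RefSeq (GRCh38.p14), with no coordinates converted. Other mitotic genes were not analysed here, since no hg19 annotation was used. No test between conditions was made.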

Additional observations from a re-analysis of the deposited data

How the results depend on the processing

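No paired analysis was possible because the conditions have 1 library each, and for that reason none was left out. With midpoints within 5 kb or within 2 kb, 0 genes had a DHT peak, 0 had a peak in all 3 lists and 0 LNCaP-abl peaks of these genes overlapped a DHT peak, because the shared CDC20 site lies beyond 5 kb. In lists of 7105 peaks, and likewise in the better-scoring 50% of each list, 1 gene had a vehicle peak, 1 a LNCaP-abl peak and 0 a peak in LNCaP-abl alone, and 1 LNCaP-abl peak overlapped a vehicle peak. With a common score minimum of 10, 0 genes had a vehicle peak, 0 a DHT peak and 0 a peak in all 3 lists, and 0 LNCaP-abl peaks overlapped a vehicle peak and 0 a DHT peak. These settings remove low-scoring peaks by construction. The minimum of 10 removed a larger share of each LNCaP list than of the LNCaP-abl list. With a reciprocal overlap of at least 50%, 1 of the 10 LNCaP-abl peaks overlapped a vehicle peak and 0 a DHT peak. The LNCaP peaks at CCNA2 and CDC20 are less than 50% as wide as the LNCaP-abl peak around them. With peaks less than 1 kb apart counted as shared, 2 LNCaP-abl peaks had a DHT partner. Also tried were midpoints within 20 kb on each side, any base of a peak within 10 kb, and starts moved 500 bp either way. These settings kept each count of genes and of overlapping peaks within 1.5 times. UBE2C gained 2 LNCaP-abl peaks when midpoints within 20 kb on each side were taken. Of 243 counts for a single gene and list over the settings, 212 stayed within 1.5 times and 31 did not. The 243 include many genes and lists without a peak in the main setting, whose counts could not fall under a stricter setting. The share that stayed is therefore not a measure of how stable the peaks found were. An absent peak cannot be told apart from one below the cutoff of a shallower library.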
